A study of Mus musculus with 18 samples.

Results

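Integrins are paired cell surface receptors, each made of an α and a β subunit, that tie leukocytes and microglia to other cells and to the extracellular matrix. The 9 genes described here encode subunits known from microglia and leukocytes. They are Itgam, Itgal and Itgb2 of the β2 leukocyte integrins, Itga4, Itga5, Itga6 and their partner Itgb1, and Itgb3 and Itgb5, the β subunits that pair with αV. They were chosen by gene symbol from the 36172 genes of the count table, and all 9 passed the filter on low counts, among 14803 genes tested. The choice was made with earlier results of these data known. Counts and medians of the 9 set beside those of all genes are therefore not independent of it.

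All animals were Cx3cr1-Cre/Ert2+; NuTRAP+ mice, in which a Cre recombinase expressed from the Cx3cr1 locus and induced by tamoxifen (Tam) at about 3 months of age switches on a ribosomal protein fused to EGFP wherever Cx3cr1 is active. Lipopolysaccharide (LPS), a component of bacterial outer membranes, was injected into the peritoneum at 5 mg/kg once 3 to 4 weeks had passed since Tam. Control mice were given the vehicle, PBS, and brains were collected 24 h after the injection. From the hemisected brain of each mouse an input sample was kept, and tagged ribosomes were pulled down by translating ribosome affinity purification (TRAP) to give the positive fraction. Input of PBS animals, input of LPS animals and the positive fraction of PBS animals gave 4 libraries each, and the positive fraction of LPS animals gave 5. These groups, named below by fraction and treatment (as in Positive LPS), come from 9 animals of which 6 were female and 3 male. The males were animals 272 and 273 among PBS and animal 267 among LPS, so sex was split unevenly between treatments. Each library came from a separate animal within its group, and libraries are named by group and animal number. Tagging follows Cx3cr1, so border macrophages that express it can carry the tag as well. Monocytes express it too, but circulating monocytes turn over quickly, and the study left those weeks after Tam so that tagged ones would be replaced. Whether tagged monocytes remained was not tested here. Flow cytometry in the study also found a small group of EGFP-positive cells in mice without Tam, most of them positive for CD11b (αM). All groups carry the Cre insertion at Cx3cr1 and the reporter.

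The β2 integrins bind intercellular adhesion molecules and complement fragments, and αM with β2 forms complement receptor 3 (CD11b/CD18), the receptor by which microglia take up opsonised material. β1 pairs with many α subunits, among them α4 for VCAM-1 and fibronectin, α5 for fibronectin and α6 for laminin. αV with β3 or β5 binds vitronectin and MFG-E8, a bridge to apoptotic cells, and the β5 gene is known as part of the homeostatic microglial signature.

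The 17 libraries used held between 22968939 and 35123345 counts. The input library of animal 271 (LPS) held 1252 counts and was left out, so 4 of the 5 LPS animals have both fractions. Microglia markers identified the positive fraction, since 13 of 13 were higher in it than in input in both treatments, and their summed level ran from 13221 to 17385 normalised counts in Input PBS and from 247350 to 294406 in Positive PBS. Normalised counts are counts divided by a size factor per library. A gene is called here when edgeR's quasi-likelihood test gave an adjusted p under 0.05 and the log2 fold change exceeded 0.32 in size, and every adjusted p below is from that test unless another is named. In such bulk fractions, fewer cells of a type and less RNA per cell cannot be told apart.

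The stretches of sequence just before the RefSeq start sites are shown for the αM, α5 and β5 genes, which rose moderately, rose strongly and fell in the positive fraction after LPS. Each is the last 250 bases before the start, read along the gene, in build GRCm38.p6. Capitals mark GAGGAA on either strand, a core bound by the myeloid factor PU.1. Itgam lies on the + strand at chr7:128062390-128062639, Itga5 on the - strand at chr15:103366792-103367041 and Itgb5 on the + strand at chr16:33829415-33829664.
Itgam: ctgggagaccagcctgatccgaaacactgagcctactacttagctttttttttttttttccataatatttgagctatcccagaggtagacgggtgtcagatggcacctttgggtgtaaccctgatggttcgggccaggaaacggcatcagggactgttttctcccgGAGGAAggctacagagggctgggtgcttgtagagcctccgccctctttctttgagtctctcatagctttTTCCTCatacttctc
Itga5: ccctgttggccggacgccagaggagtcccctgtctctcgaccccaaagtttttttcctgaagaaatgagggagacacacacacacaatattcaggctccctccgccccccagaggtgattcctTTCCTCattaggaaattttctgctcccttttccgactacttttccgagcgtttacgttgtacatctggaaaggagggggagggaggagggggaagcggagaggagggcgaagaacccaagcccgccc
Itgb5: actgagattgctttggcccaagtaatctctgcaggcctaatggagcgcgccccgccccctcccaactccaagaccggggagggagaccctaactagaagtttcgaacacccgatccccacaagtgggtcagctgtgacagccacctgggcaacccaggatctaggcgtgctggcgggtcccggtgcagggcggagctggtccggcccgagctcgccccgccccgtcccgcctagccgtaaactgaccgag

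Promoter sequence was found for 5 of the 9 genes, those above and Itga4 and Itgb1. GAGGAA began 84 and 15 bases before the start of Itgam, 127 bases before that of Itga5 and 9 bases before that of Itgb1, and it was not in the window of Itga4 or Itgb5. It was held by 23.3% of 32851 promoter windows of the same length. The interferon-response type motif GAAANNGAAA, the AP-1 motif TGANTCA and the NF-kB consensus were in none of these 5 windows, against 2.98%, 6.75% and 7.25% of all windows. A match of letters is a description and not a binding site.

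After LPS, 5 of the 9 integrin genes rose in the positive fraction (Itgam, Itgb2, Itgal, Itga5 and Itgb3), 1 fell (Itgb5) and 3 were not called (Itga4, Itga6 and Itgb1). Over all genes tested, 19.0% were called higher and 14.9% lower. The median log2 fold change was 0.82 over the 9 genes and 0.01 over all genes tested. In input 4 rose (Itgam, Itgb2, Itga5 and Itga6), none fell and 5 were not called, where 7.16% of all genes were called higher and 5.26% lower, and the medians were 0.44 and 0.00.

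**Figure D1:**
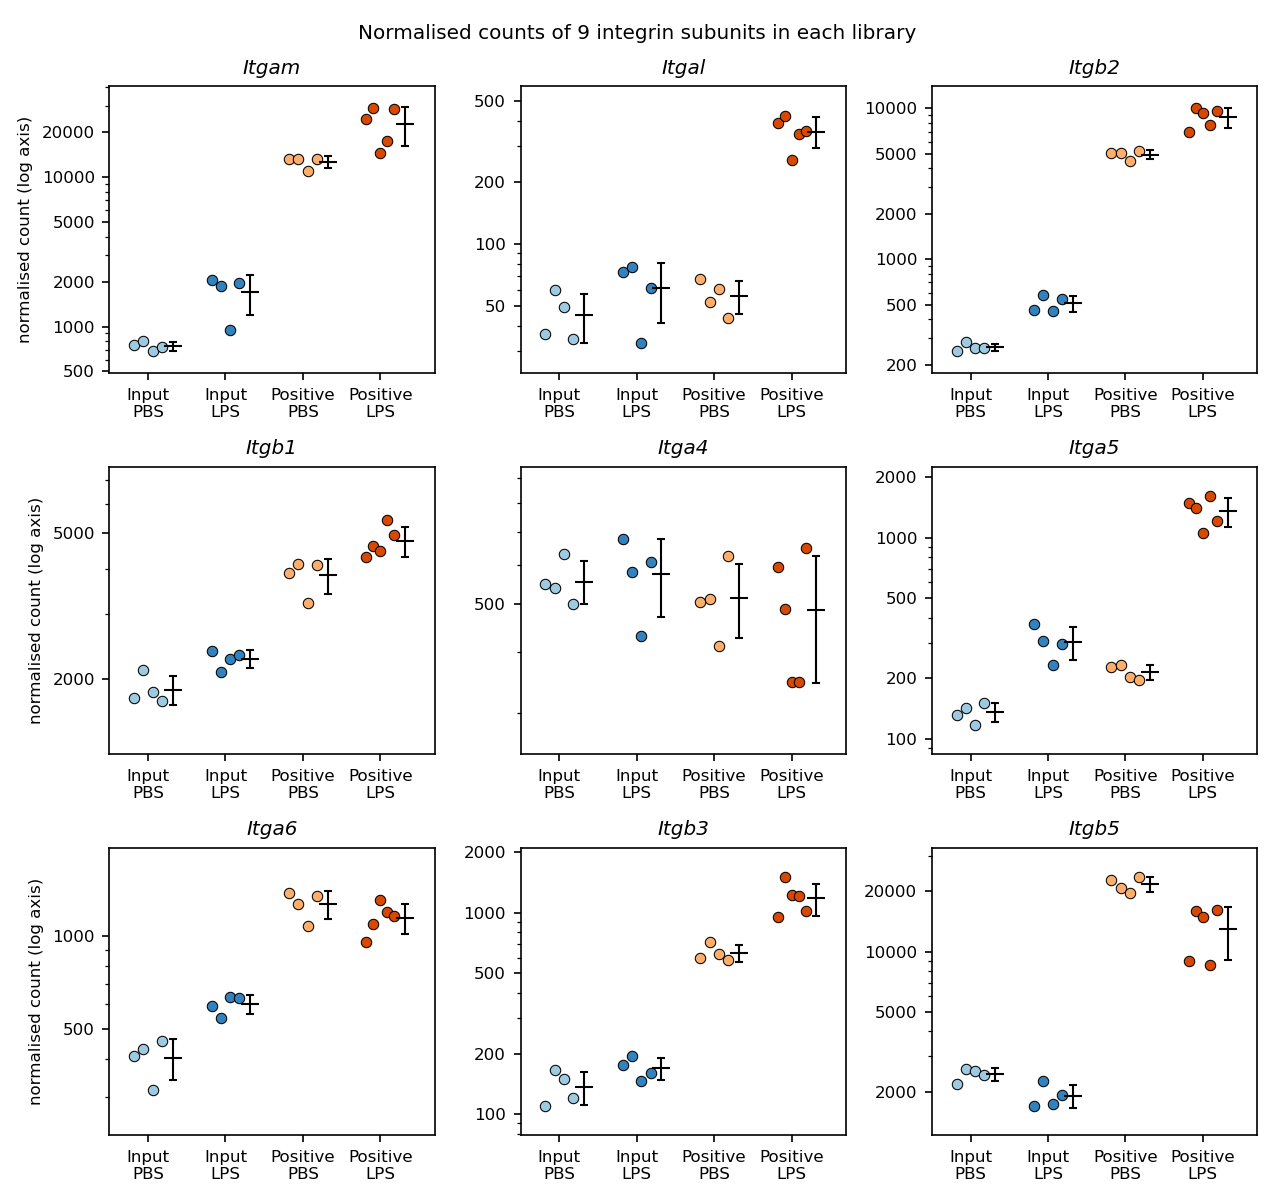
Normalised counts of the 9 integrin genes on log axes, with 1 point for each library and the mean ± SD beside each group of 4 or 5 libraries. Itgal and Itga5 stand apart in the 5 Positive LPS libraries, Itgb5 is lower there than in all 4 Positive PBS libraries, and Itga4 lies within 347 to 677 counts in all 4 groups.

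Itgam (chromosome 7, 128062640 to 128118491, mm10, + strand) encodes αM. Its normalised counts in Positive PBS were 13255 in animals 268 and 272, 11087 in 273 and 13262 in 506. In Positive LPS they were 24521 in animal 266, 29237 in 267, 14533 in 270, 17397 in 271 and 28648 in 507. All 5 LPS libraries lay above all 4 PBS libraries, with animals 270 and 271 nearest to them. The level was 1.80-fold higher after LPS (log2 0.85, SE 0.21, adjusted p 0.00323). In input it was 755, 804, 684 and 725 in PBS (animals 268, 272, 273 and 506) and 2036, 1859, 946 and 1966 in LPS (266, 267, 270 and 507). Animal 270 was thus the lowest of its group in both fractions, and the groups did not overlap in input either. The input rise was 2.29-fold (log2 1.20, SE 0.22, adjusted p 0.00104).

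Itgb2 (chromosome 10, 77530348 to 77565674, + strand) encodes β2, without which αM and αL do not reach the cell surface. It was at 5014, 5087, 4441 and 5192 normalised counts in Positive PBS (animals 268, 272, 273 and 506) and at 7001, 10029, 9368, 7729 and 9516 in Positive LPS (266, 267, 270, 271 and 507). The groups did not overlap, and the lowest LPS libraries were those of animals 266 and 271. The rise was 1.77-fold (log2 0.82, SE 0.10, adjusted p 6.02e-06). In input Itgb2 went from 261 ± 15.1 (SD, n = 4) to 508 ± 61.5 (n = 4) with no overlap, a rise of 1.95-fold (log2 0.96, SE 0.12, adjusted p 1.31e-05). For Itgam and Itgb2 the LPS effects in the fractions differed by -0.35 (95% interval -0.98 to 0.27) and -0.14 (-0.46 to 0.18) on the log2 scale, positive minus input, neither called.

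Itgal (chromosome 7, 127296260 to 127335137, + strand) encodes αL, which with β2 forms LFA-1, the lymphocyte receptor for ICAM-1. In Positive PBS it was at 67.5, 52.3, 60.1 and 43.3 normalised counts (animals 268, 272, 273 and 506), and in Positive LPS at 388, 423, 259, 345 and 358 (266, 267, 270, 271 and 507). The lowest LPS library held several times the count of the highest PBS library. The rise was 6.33-fold (log2 2.66, SE 0.24, adjusted p 1.72e-07). In input Itgal was at 36.5, 59.8, 49.4 and 34.3 in PBS and at 73.4, 77.2, 32.8 and 61.2 in LPS (266, 267, 270 and 507). These input groups overlapped, with animal 270 below all PBS libraries, and the difference was not called (log2 0.44, SE 0.25, adjusted p 0.272).

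The LPS effect on Itgal was larger in the positive fraction than in input by 2.22 on the log2 scale (SE 0.35, 95% interval 1.49 to 2.95, adjusted p 0.000715). Over all genes tested, 5.46% had a larger and 1.42% a smaller LPS effect in the positive fraction by the same rule. Itgal, Itga5 and Itga6 were the 3 of the 9 genes called in this comparison. In PBS animals Itgal did not differ between the fractions by this test (log2 0.32, 95% interval -0.23 to 0.86), and in LPS animals it was 5.80-fold higher in the positive fraction (log2 2.54, SE 0.24, adjusted p 5.52e-08).

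Itgb1 (chromosome 8, 128685654 to 128733579, + strand) encodes β1, the common partner of α4, α5 and α6. It was at 3905, 4114, 3231 and 4087 normalised counts in Positive PBS (animals 268, 272, 273 and 506) and at 4293, 4620, 4472, 5419.5 and 4948 in Positive LPS (266, 267, 270, 271 and 507). The groups did not overlap, though animal 266 stood just above the highest PBS library. The log2 difference was 0.31 (SE 0.09, adjusted p 0.00890), a 1.24-fold level that fell short of the fold threshold, and 9 of the 28 alternative settings called it. Its input means were 1868 ± 169 after PBS and 2268 ± 130 after LPS (SD, n = 4 each), with overlapping groups (log2 0.28, adjusted p 0.0509).

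Itga5 (chromosome 15, 103344286 to 103366748, - strand) encodes α5 of the fibronectin receptor. In Positive PBS it was at 227, 234, 204 and 196 normalised counts (animals 268, 272, 273 and 506), and in Positive LPS at 1489, 1405, 1052, 1603 and 1215 (266, 267, 270, 271 and 507). The groups lay far apart. The rise was 6.27-fold (log2 2.65, SE 0.15, adjusted p 4.48e-10), and with Itgal it was the largest of the 9. In input Itga5 was at 132, 142, 118 and 151 in PBS and at 371, 308, 234 and 297 in LPS (266, 267, 270 and 507), again without overlap, a rise of 2.22-fold (log2 1.15, SE 0.15, adjusted p 3.86e-05). The effect was larger in the positive fraction by 1.50 (SE 0.21, adjusted p 0.000226).

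Itga6 (chromosome 2, 71787083 to 71856758, + strand) encodes α6 of the laminin receptor. Its input counts were 408, 429, 316 and 455 in PBS (animals 268, 272, 273 and 506) and 594, 541, 633 and 631 in LPS (266, 267, 270 and 507), without overlap, a rise of 1.49-fold (log2 0.58, SE 0.12, adjusted p 0.00309). In the positive fraction it was at 1381, 1272, 1076 and 1348 in PBS and at 956, 1097, 1309, 1202 and 1162 in LPS (266, 267, 270, 271 and 507). These groups overlapped (log2 -0.15, 95% interval -0.38 to 0.09, adjusted p 0.304). The LPS effect was smaller in the positive fraction by -0.72 on the log2 scale (SE 0.16, adjusted p 0.0108), a call that was lost without animals 506 and 507 (adjusted p 0.0847). Itga6 is also known from blood vessels. In input 5 of 12 endothelial markers rose and 1 fell, and they summed to 2647 to 4070 normalised counts after PBS and 3906 to 6166 after LPS, whose part in the Itga6 result was not tested.

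Itga4 (chromosome 2, 79255426 to 79333114, + strand) encodes α4 of the VCAM-1 receptor VLA-4. Its groups overlapped in all 4 comparisons, at a mean of 554 ± 55.2 normalised counts (SD, n = 4) in input after PBS and 574 ± 104 (n = 4) after LPS. In the positive fraction it was 514 ± 88.2 (n = 4) after PBS and 485 ± 139 (n = 5) after LPS. Within Positive LPS the libraries of animals 270 and 271 were both at 347, and that of animal 507 was at 651. The log2 difference after LPS was -0.08 in the positive fraction (95% interval -0.47 to 0.30) and 0.05 in input (-0.36 to 0.45), and its sign turned in some of the alternatives.

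Itgb3 (chromosome 11, 104608000 to 104670471, + strand) encodes β3, the vitronectin receptor subunit also known from platelets. In Positive PBS it was at 595, 718, 623 and 582 normalised counts (animals 268, 272, 273 and 506) and in Positive LPS at 957, 1501, 1224, 1209 and 1022 (266, 267, 270, 271 and 507). The groups did not overlap, and animal 267 was the highest. The rise was 1.88-fold (log2 0.91, SE 0.14, adjusted p 5.58e-05). Its input means of 136 ± 25.4 after PBS and 169 ± 20.5 after LPS (SD, n = 4 each) came from overlapping groups (log2 0.31, SE 0.16, adjusted p 0.205). The LPS effects differed by 0.60 (SE 0.21, adjusted p 0.102), and with the animal as a replicate block by 0.57 (adjusted p 0.0273), which passed the threshold. Of the platelet markers, 5 of 8 were tested, none rose and 3 fell in the positive fraction. Over all genes tested, 19.0% were called higher there and 14.9% lower. The part of platelets in the Itgb3 result was not tested.

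Itgb5 (chromosome 16, 33829665 to 33949338, + strand) encodes β5. In Positive PBS it was at 22849, 20725, 19691 and 23558 normalised counts (animals 268, 272, 273 and 506), the highest count of the 9 genes. In Positive LPS it was at 8959, 16057, 14900, 8615 and 16131 (266, 267, 270, 271 and 507). All LPS libraries lay below all PBS libraries, and within LPS animals 266 and 271 stood well below the other 3. The log2 difference was -0.75 (SE 0.16, adjusted p 0.00140), which leaves 0.596 of the PBS level. Its input means of 2441 ± 180 after PBS and 1906 ± 255 after LPS (SD, n = 4 each) came from overlapping groups (log2 -0.36, 95% interval -0.72 to 0.01, adjusted p 0.193).

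**Figure D2:**
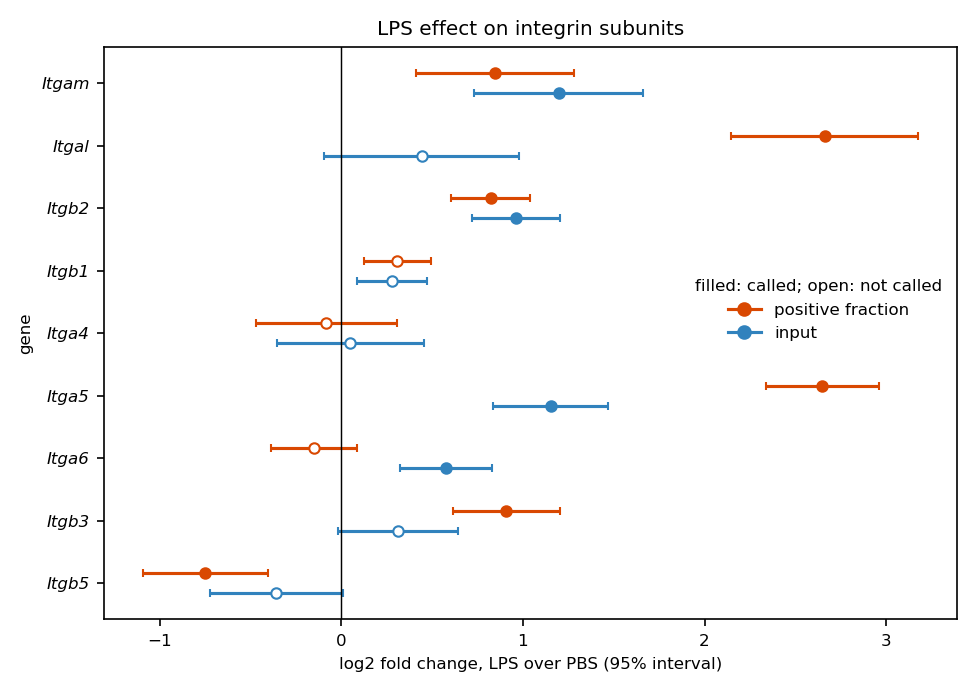
Log2 fold change of LPS over PBS for the 9 integrin genes in the positive fraction and in input. Bars are approximate 95% intervals derived from the edgeR test statistic (filled points called, open points not). Itgal and Itga5 lie at 2.66 and 2.65 in the positive fraction and at 0.44 and 1.15 in input, Itga6 was called in input alone, and Itgb5 is the 1 gene called below 0.

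The positive fraction was compared with input in each treatment. In PBS animals 7 of the 9 genes were higher in the positive fraction, none was lower and 2 were not called, where 21.0% of all genes tested were called higher and 18.8% lower. Itgb2 was enriched 18.9-fold (log2 4.24, SE 0.12) and Itgam 17.1-fold (log2 4.10, SE 0.24). For comparison, the median log2 fold change of the 13 microglia markers was 4.26 and that of the border macrophage markers 4.02, with 9 of 9 called higher. Of 12 endothelial markers 9 were higher (median 1.32). Of 8 neuron markers 2 were higher and none lower (median -0.02), so a fold near 1 was also that of neuron markers. Other lists were lower, with 8 of 8 oligodendrocyte markers called lower (median -1.99). Of 8 astrocyte markers 1 was higher and 3 lower (median -0.25), and of 8 neutrophil markers 2 were higher and 4 lower (median -1.36). Of 7 pericyte and smooth muscle markers none was called (median -0.14). Itgb5 followed at 8.89-fold, Itgb3 at 4.63-fold, Itga6 at 3.16-fold, Itgb1 at 2.05-fold and Itga5 at 1.58-fold, with adjusted p of 0.00173 for Itga5 and below that for the others. Itgal (log2 0.32) and Itga4 (log2 -0.11) were not called.

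In LPS animals 8 of the 9 genes were higher in the positive fraction, and Itga4 was not called (log2 -0.24, 95% interval -0.63 to 0.14), where 27.6% of all genes were called higher and 25.8% lower. Itgb2 was at 17.2-fold, Itgam at 13.4-fold, Itgb3 at 7.0-fold, Itgb5 at 6.79-fold, Itgal at 5.80-fold, Itga5 at 4.47-fold, Itgb1 at 2.10-fold and Itga6 at 1.91-fold. Higher calls made up 52.8% of all calls in PBS animals, against 37.6% when size factors spanned all 18 libraries and 37.0% on the deposited log2 values. For LPS animals the shares were 51.7%, 43.2% and 41.1%. Those scalings moved the median of all genes by at most -0.13 on the log2 scale, and the 9 genes kept 7 and 8 calls, all higher, in both.

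**Figure D3:**
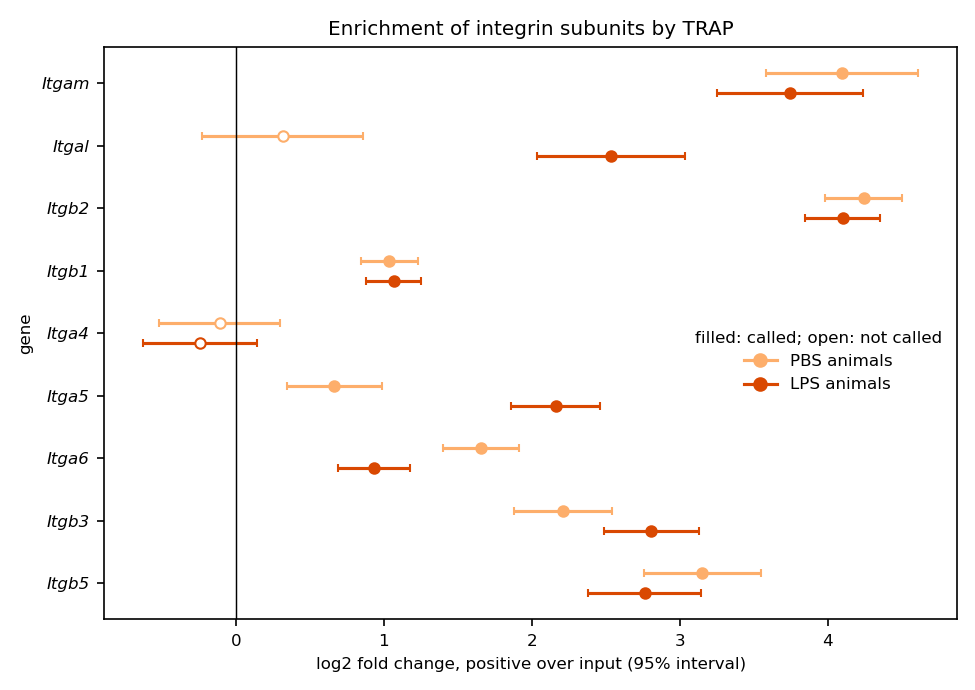
Log2 fold change of positive fraction over input for the 9 integrin genes in PBS and LPS animals. Bars are approximate 95% intervals derived from the edgeR test statistic (filled points called, open points not). Itgb2 and Itgam lie near 4 in both treatments, Itga4 near 0 in both, and Itgal moves from 0.32 to 2.54.

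Levels of different genes were compared per kilobase of exon (merged exons of the GENCODE vM21 basic annotation), which need not be the gene models used for counting. In Positive PBS the order was Itgb5 (6401 ± 532 normalised counts per kilobase, SD, n = 4), Itgam (2581 ± 220), Itgb2 (1661 ± 113), Itgb1 (1005 ± 108), Itga6 (291 ± 31.3), Itgb3 (109 ± 10.6), Itga4 (52.6 ± 9.03), Itga5 (49.1 ± 4.12) and Itgal (8.75 ± 1.63). Each gene lay above the next in all libraries but for Itga4 and Itga5, whose ranges overlapped.

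In Positive LPS the order per kilobase was Itgam (4642 ± 1347, SD, n = 5), Itgb5 (3814 ± 1126), Itgb2 (2939 ± 436), Itgb1 (1245 ± 116), Itga5 (309 ± 50.1), Itga6 (263 ± 30.0), Itgb3 (204 ± 36.7), Itgal (55.6 ± 9.62) and Itga4 (49.7 ± 14.2). Neighbours overlapped for Itgam, Itgb5 and Itgb2, for Itga5, Itga6 and Itgb3, and for Itgal and Itga4. Itga5 thus moved from the eighth to the fifth place and Itgal from the ninth to the eighth.

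In Input PBS Itgb5 (720 ± 53.0 per kilobase, n = 4) and Itgb1 (490 ± 44.4) led, ahead of Itgam (151 ± 10.3), Itga6 (92.2 ± 13.9) and Itgb2 (87.7 ± 5.07), which overlapped with Itga6. Itga4 (56.8 ± 5.65), Itga5 (31.0 ± 3.30), Itgb3 (23.5 ± 4.39) and Itgal (7.05 ± 1.87) followed, and Itga5 and Itgb3 overlapped. In Input LPS Itgb1 (594 ± 34.2, n = 4) and Itgb5 (562 ± 75.1) overlapped, and Itgam (345 ± 103) and Itgb2 (171 ± 20.7) overlapped as well. Below them stood Itga6 (138 ± 9.85), Itga5 (69.0 ± 12.8), Itga4 (58.8 ± 10.7), Itgb3 (29.2 ± 3.55) and Itgal (9.59 ± 3.15), with Itga5 and Itga4 overlapping.

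As a share of the summed per-length level of the 9 genes in Positive PBS, Itgb5 took 52.6% ± 1.50 (SD, n = 4), Itgam 21.2% ± 0.69 and Itgb2 13.7% ± 0.36. In Positive LPS these were 27.9% ± 5.38 (n = 5), 34.1% ± 6.78 and 21.9% ± 2.39. Itga5 went from 0.406% ± 0.04 to 2.36% ± 0.68.

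Ratios between subunits within a library do not depend on the scaling between libraries, and 7 were computed per length as a description with no test. The log2 ratio of Itgam to its partner Itgb2 was 0.63 ± 0.04 in Positive PBS (SD, n = 4) and 0.62 ± 0.46 in Positive LPS (n = 5). The mean was thus almost level while the spread widened, from -0.10 in the lowest LPS library to 1.08 in the highest. In input it was 0.78 ± 0.09 in PBS and 0.96 ± 0.46 in LPS (n = 4 each).

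Against β2, Itgal moved in the positive fraction from -7.59 ± 0.33 to -5.73 ± 0.37 with no overlap, while input shifted from -3.67 ± 0.31 to -4.23 ± 0.49 with overlap. Against αM, it went up from -8.23 ± 0.34 to -6.35 ± 0.26 among positive libraries while input libraries went down from -4.45 ± 0.36 to -5.19 ± 0.17, each without overlap and in opposite directions. So the αL to αM ratio was lowest in Positive PBS, and in all 4 groups αL stayed far below αM.

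Against β1, Itga5 went up from -4.35 ± 0.16 to -2.02 ± 0.23 among positive libraries, and input libraries went from -3.98 ± 0.19 to -3.12 ± 0.26, both without overlap. Itga6 moved from -1.79 ± 0.08 to -2.25 ± 0.16 in the positive fraction without overlap. In input it was at -2.42 ± 0.26 in PBS and -2.11 ± 0.07 in LPS, with overlap. Itga4 was at -4.27 ± 0.14 and -4.69 ± 0.48 in the positive fraction, with overlap. Among the 3 α partners of β1, the highest per length in Positive PBS was thus Itga6, and in Positive LPS Itga5 and Itga6 were close.

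The ratio of Itgb3 to Itgb5 went up from -5.88 ± 0.23 to -4.18 ± 0.43 among positive libraries, and input libraries went from -4.95 ± 0.18 to -4.27 ± 0.15, both without overlap. β3 stayed below β5 in all 17 libraries. Their common partner Itgav was not called in the positive fraction (log2 -0.04, adjusted p 0.841) or in input (-0.08, adjusted p 0.761).

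**Figure D4:**
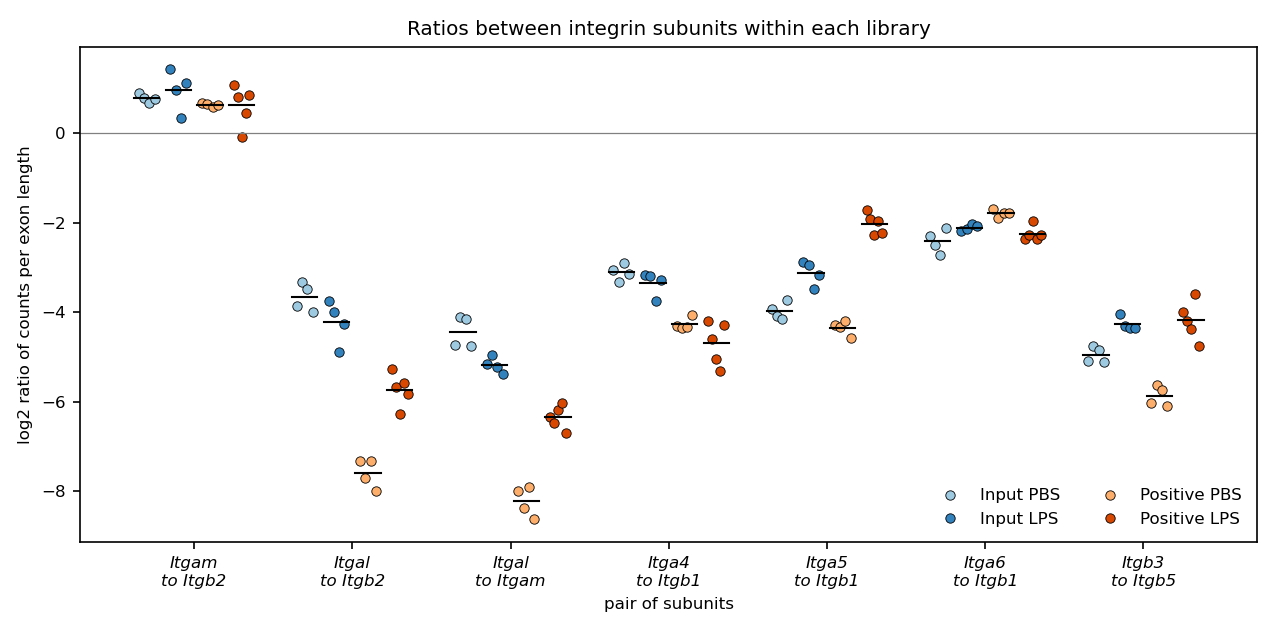
Log2 ratios of counts per exon length between pairs of integrin subunits, with 1 point for each of the 17 libraries and a line at each group mean. The Itgam to Itgb2 ratio keeps its mean near 0.63 in the positive fraction while its spread widens after LPS, and the Itga5 to Itgb1 and Itgb3 to Itgb5 ratios rise in both fractions.

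Of 17 other integrin subunits 14 were tested. In the positive fraction after LPS none rose, 1 fell and 13 were not called, with a median log2 fold change of -0.02. The subunit that fell was Itga1, a collagen receptor subunit (log2 -0.71, SE 0.25, adjusted p 0.0285). That call was lost without any 1 of Positive PBS 268 (-0.66) or 272 (-0.67) or Positive LPS 270 (-0.62), 271 (-0.66) or 507 (-0.63). In input 1 rose and 1 fell. The riser was Itgad, encoding αD, a further β2 partner (log2 2.57, adjusted p 0.000337), named after its values were seen. It was at 15.5, 6.19, 18.04 and 10.5 normalised counts in Input PBS and at 79.5, 62.5, 92.8 and 67.2 in Input LPS. Its positive libraries lay between 2.86 and 11.8 after PBS and between 2.01 and 22.3 after LPS. Itgad passed the filter on low counts through Input LPS alone, the group called higher. Its call and the lack of overlap in input are therefore not independent of the filter. The one that fell was Itgb4, the epithelial laminin receptor subunit (log2 -1.13, SE 0.23, adjusted p 0.00240).

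Of 30 integrin ligand genes 27 were tested, of which 9 rose, 6 fell and 12 were not called in the positive fraction (median -0.12). In input 6 rose, 3 fell and 18 were not called (median 0.17). Among ligands averaging 100 normalised counts or more, those that rose most in both fractions were C3 and Icam1. C3, the complement component whose fragment iC3b is bound by αM with β2, rose by 4.47 in the positive fraction (SE 0.49, adjusted p 1.35e-06), and its input rise was 3.72 (SE 0.50, adjusted p 4.91e-05). Icam1, the ligand of αL with β2, rose by 2.24 there (SE 0.23, adjusted p 5.61e-07), and its input rise was 2.83 (SE 0.25, adjusted p 4.87e-07).

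Vcam1, the ligand of α4 with β1, rose by 1.05 in the positive fraction (SE 0.25, adjusted p 0.00243) and was at 0.36 in input, not called. Spp1, encoding osteopontin, rose in both fractions, by 1.02 among positive (SE 0.23, adjusted p 0.0018) and 1.18 among input libraries (SE 0.24, adjusted p 0.00240). Mfge8 and Vtn, whose products are the αV ligands named at the start, were among the genes that fell. Ligands of αV were not tested as a group. Mfge8 fell by 1.02 in both fractions, with adjusted p of 1.33e-05 for positive and 9.50e-05 for input libraries. Vtn, encoding vitronectin, fell as well, at -1.06 among positive libraries (SE 0.19, adjusted p 0.000190) and -0.70 among input libraries (SE 0.20, adjusted p 0.0215). The input call of Vtn was lost without Input LPS 266 (-0.69) or 270 (-0.64) or Input PBS 272 (-0.66). Tnc, encoding tenascin C, fell as well, at -0.74 among positive (SE 0.22, adjusted p 0.0117) and -1.34 among input libraries (SE 0.23, adjusted p 0.000420).

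Fn1, encoding fibronectin, was at 2657, 985, 1158 and 1101 normalised counts in Positive PBS (animals 268, 272, 273 and 506) and at 1077, 884, 747, 459 and 1107 in Positive LPS (266, 267, 270, 271 and 507). Animal 268 stood far above the other libraries, and the groups overlapped. The call for Fn1 (log2 -0.79, SE 0.28, adjusted p 0.0336) rested on that library, since without it the value was -0.34 (adjusted p 0.267), and it was also lost without Positive LPS 270 (-0.74) or 271 (-0.63).

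Of 35 genes of integrin activation and adaptors 34 were tested, of which 14 rose, 5 fell and 15 were not called in the positive fraction (median 0.28). In input 10 rose, 2 fell and 22 were not called (median 0.21). The Src family kinase Fgr, which signals below β2 integrins, rose by 5.41 (SE 0.25, adjusted p 5.52e-11) among positive libraries. Flna, encoding the actin linker filamin A that binds β tails, rose by 2.34 (SE 0.16, adjusted p 5.79e-09). Genes that fell there were the talin Tln2 (log2 -0.83, SE 0.07), the Rap1 exchange factor Rasgrp2 (-0.81, SE 0.12) and the parvin Parvg (-0.76, SE 0.18).

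The adaptor Fyb rose by 1.61 in input (SE 0.27) and by 1.38 in the positive fraction (SE 0.24, adjusted p 0.000169). Fermt3, the kindlin that activates β2 and β3 integrins, rose by 0.97 in input (SE 0.19, adjusted p 0.00211) and by 1.11 in the positive fraction (SE 0.17, adjusted p 5.78e-05). In input Tln2 fell by 0.44 (SE 0.08) and Rasgrp2 by 0.52 (SE 0.12). By the test of the difference, the LPS effect was larger in the positive fraction for 4 of these 34 genes and smaller for 2. For all genes tested the shares were 5.46% and 1.42%. Flna and Fgr were among the 4, with 1.72 (adjusted p 0.000147) and 2.74 (adjusted p 0.000171).

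Markers of other cell types moved beside these results. Of 12 neutrophil markers 8 were tested, of which 5 rose and 1 fell in the positive fraction and 6 rose in input. Ly6g, which defines neutrophils, is listed at 0 in all 17 libraries, but so is Acta2, an abundant gene of vascular smooth muscle. A 0 in this table may therefore be a gene that was not counted, and the 0 of Ly6g is not read as absence. The summed level was between 1950 and 2297 normalised counts in Positive PBS, 1212 and 2310 in Positive LPS, 733 and 1116 in Input PBS and 1050 and 2064 in Input LPS. Csf3r, the marker that fell (log2 -0.91, adjusted p 0.000929), made up most of the Positive PBS sums, at 1660 to 2040. In Positive LPS Csf3r was at 656 to 1280, a range close to that of the other 11 markers. The sum of the other 11 markers, a split made after the values were seen, was between 253 and 539 in Positive PBS and between 550 and 1240 in Positive LPS. In input it was between 531 and 909 after PBS and between 929 and 1860 after LPS. These sums did not overlap in either fraction, but leaving out the marker that fell favours a rise. The sums of all 12 markers overlapped in both fractions. S100a8 lay between 5.71 and 24.0 in Positive PBS and between 167 and 600 in Positive LPS (log2 4.73, adjusted p 9.38e-07).

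Of 14 lymphocyte markers 2 passed the filter, none rose in either fraction, and the sum was between 299 and 415 in Positive PBS and between 199 and 301 in Positive LPS, with Ighm and Trac listed at 0 in both, which is not read as absence for the same reason. Monocyte and macrophage markers (11 of 12 in the table, 10 tested) had 1 riser and 3 that fell in the positive fraction, with sums of 6646 to 9341 after PBS and 4775 to 8096 after LPS. The riser was Ms4a4c (log2 3.14, adjusted p 1.64e-05), and Ccr2 was among those that fell (log2 -2.33, adjusted p 0.000139) at a mean of 24.0 normalised counts. Fn1 was also among those that fell, and its call rested on the Positive PBS library of animal 268. This list shares Ly6c1 with the endothelial list and F13a1 with the border macrophage list. Border macrophage markers had none that rose and 4 of 9 that fell, with sums from 10788 to 18982 and from 7544 to 16014. The part of these cell types in the rise of Itgam, Itgb2, Itgal and Itga5 was not tested.

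Of the 13 microglia markers 8 fell, 2 rose and 3 were not called after LPS in the positive fraction, with sums of 247350 to 294406 after PBS and 181786 to 256696 after LPS. Cx3cr1, which drives the tag, was not called (log2 -0.20, adjusted p 0.411). Tmem119, a marker of homeostatic microglia, fell by 0.86 (adjusted p 0.000526), beside the -0.75 of Itgb5. Of 12 endothelial markers 4 rose and 4 fell in the positive fraction, where the sum spanned 7052 to 10908 after PBS and 6496 to 11264 after LPS. Pericyte and smooth muscle markers had 0 that rose and 3 that fell of 7 tested. Astrocyte markers had 1 and 2 of 8, oligodendrocyte markers 0 and 2 of 8, and neuron markers 0 and 3 of 8. Over all genes tested, 19.0% were called higher and 14.9% lower in this fraction. The counts of these short lists were not tested against those shares. In input 7 of 8 oligodendrocyte markers fell (median log2 -0.71), with sums from 103693 to 163331 after PBS and from 66597 to 95245 after LPS, beside the input values above, such as the fall of Itgb4. Endothelial markers had 5 of 12 that rose and 1 that fell there, with sums from 2647 to 4070 and from 3906 to 6166. The part of these cell types in the input results was not tested.

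The genes most alike in pattern were found by Pearson's r of log2(normalised count + 1) over the 17 libraries, which differ by fraction and treatment, so that r also carries the differences between groups. They were Fermt3 (0.996), Gsdmd and Lcp1 (0.995 each) for Itgam, Ctsh (0.997), Grn and Sipa1 (0.996 each) for Itgb2, and Slc31a2 (0.983), Elovl1 and Atp6v0e (0.979 each) for Itgal. For Itgb1 they were Klhl6 (0.988), Copb2 and Gdi2 (0.986 each), for Itga4 Ccnc (0.895), Golga1 (0.868) and Ccdc132 (0.864), for Itga5 AW112010 (0.995), Plin2 (0.991) and Clec4d (0.989), and for Itga6 Il13ra1 (0.978), Pdlim4 (0.976) and Il6ra (0.973). Itgb3 was most like Capzb, Leprot and Ctsz (0.990 each), and Itgb5 most like Tmem119 (0.995), Pld4 (0.994) and 4632428N05Rik (0.993). The r of Itga4 was the lowest of the 9, and Itga4 was also the gene whose groups overlapped throughout.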

How the data were processed

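The deposited table holds, per the file headers, estimated counts per gene and log2 values for 18 libraries of 9 animals. The authors made the estimated counts from strand-specific reads aligned to the mouse genome (mm10) in Strand NGS, and deposited log2 values normalised with DESeq and set against Input PBS. A fraction of a read was present in 81.7% of nonzero counts, and these were rounded. Size factors were medians of ratios (0.766 to 1.32). Genes with over 20 normalised counts in every library of at least 1 group were tested, following the study's filter. Counts were fitted with edgeR 4.0.16 (quasi-likelihood, 1 mean per group, 13 residual degrees of freedom, R 4.3.3), with Benjamini-Hochberg adjustment over all genes tested, in place of the study's analysis of variance because the values are counts. The LPS effect per fraction, positive over input per treatment and the difference of LPS effects were tested.

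The 9 genes and the lists were chosen with earlier results of these data known. Genes named from a list are, per LPS comparison, the 3 called genes with the largest rise and the 3 with the largest fall among those averaging 100 normalised counts or more. One gene that this rule names is counted in its list but is not reported here. Itgad, the partner Itgav and the cell type markers named lie outside this rule and were chosen after their values were seen. Also named are, for each integrin gene, the 3 genes most alike in pattern. The input of animal 271 was not used in the main fits because of its depth. Input and positive libraries of an animal are paired, and their deviations from the group means correlated at 0.16 to 0.519 in the 8 animals with both. Alternatives were TMM scaling, no filter or a stricter one, DESeq2 1.42.0, limma 3.58.1, all 18 libraries, the compared groups alone, no animals 506 and 507, sex as a covariate, the deposited log2 values, each library left out, and the animal as a replicate block. The total counts limit precision for low genes, Itgal being the lowest of the 9. Promoter sequence is from RefSeq (GRCm38.p6).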

Additional observations from a re-analysis of the deposited data

Results flagged for a closer look

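In groups of 4 or 5 libraries, 2 of 36 tests marked a library far from the others of its group, where chance marks about 1 in 20 groups. Itgam in the Input LPS library of animal 270 was at 946 normalised counts, with the nearest library at 1859. Itgam in the Positive PBS library of animal 273 was at 11087, with the nearest at 13255.

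The LPS effect differed between the fractions for 3 of the 9 genes by the test of the difference itself (edgeR, log2, positive minus input). By the same rule, 5.46% of all genes tested had a larger and 1.42% a smaller effect in the positive fraction. For the 3 genes the values follow. The difference was 2.22 for Itgal (adjusted p 0.000715), 1.50 for Itga5 (adjusted p 0.000226) and -0.725 for Itga6 (adjusted p 0.0108). Itgal was higher than in every PBS library in 5 of 5 Positive LPS libraries and Itga5 in 5 of 5 likewise.

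In the input library of animal 271, which the main fits left out, Itgb5 held 4 of 1252 counts. That is 0.320% of the library, against 0.00805% to 0.00941% in the Input PBS libraries. The other 8 integrin genes were at 0 there. A count of 0 allows up to 3 counts, which at this depth limits nothing.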

How the results depend on the processing

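Over the 9 genes, 5 comparisons and their alternatives, 1225 of 1251 values kept their direction and their side of the threshold, 14 passed it newly, 1 no longer passed it and 11 changed sign. The changes of sign were all of values near 0 that were not called. For Itga4 after LPS in the positive fraction the values without 1 library ran from -0.208 to 0.0246, and in input from -0.0383 to 0.166, and its input value was -0.0253 without animals 506 and 507 and -0.0114 with the animal as a replicate block. For the difference of the LPS effect on Itgb1 they ran from -0.0445 to 0.0676, with -0.0202 under the replicate block. The libraries whose removal turned the sign were Positive LPS 270 (0.0206), Positive LPS 271 (0.0207) and Positive PBS 506 (0.0246) for Itga4 in the positive fraction, and Input LPS 266 (-0.0383) for Itga4 in input. For Itgb1 they were Input LPS 267 (-0.0104), Positive LPS 271 (-0.0184), Input PBS 272 (-0.0357) and Positive PBS 273 (-0.0445). The cause was not tested.

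Without animals 506 and 507, 1083 genes were called for LPS in input against 1839, and 323 for the difference between fractions against 1018, with fewer libraries in the fit. With libraries paired by animal (replicate block) 1915 genes passed for that difference. The block called Itgb3 in that comparison and changed no other call among the 9 genes. Itgb1 after LPS in the positive fraction was called with TMM scaling (0.33), all 18 libraries (0.357), the deposited log2 values (0.36), without animals 506 and 507 (0.325), and without Positive LPS 266 (0.348), 267 (0.324) or 270 (0.334) or Positive PBS 272 (0.344) or 506 (0.34). Itgb3 was also called for LPS in input and for the difference with sex as a covariate (0.406 and 0.596), Itgb5 in input with the compared groups alone (-0.363), and Itgb1 in input without the Input PBS library of animal 272 (0.343). Of 1115 values for the 25 other genes named with LPS effects, 1091 kept direction and side of the threshold. Itgav, not called in the positive fraction, changed sign with all 18 libraries (0.00683), the deposited log2 values (0.0246), without animals 506 and 507 (0.0702) and without 1 of 4 libraries, with a range of -0.135 to 0.0814 without 1 library. Calls were lost for Fn1 in 6 settings, Itga1 in 7, Vtn in input in 3 and Itgb4 in input with the deposited log2 values (-1.1), in each case in the same direction. For the difference there is no setting with the compared groups alone, since all 4 groups enter it. Depth limits Itgal most, at 32.8 to 77.2 normalised counts in input.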
